A study of Danio rerio with 2 samples.

Results

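The genes btk, faslg and b2m were examined in whole zebrafish larvae that lack the intracellular pattern recognition receptor NOD1. The 3 genes were taken by their symbols from a real-time PCR array of 89 genes, of which 84 belong to the PI3K-Akt pathway and 5 are reference genes. The gene b2m is one of the 5 reference genes, and it was treated here as a measured gene and not used for scaling. NOD1-deficient larvae (NOD1-1IS-/-, homozygous for a 1 bp insertion in nod1 made with Cas9 and a guide RNA) were compared with wild-type (WT) AB/TU larvae, both collected at 10 days post fertilization (dpf) with no further treatment stated. Each group had 3 replicates, each of them 1 array with RNA of 200 to 250 pooled larvae, so the values stand for whole pools of larvae, and the mutant group for 1 allele. No assay for nod1 itself is on the array, and its loss could not be checked in these values.

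The 3 genes are linked to leukocytes in different ways. In mammals BTK (Bruton's tyrosine kinase, annotated on the array as Bruton agammaglobulinemia tyrosine kinase) is a cytoplasmic kinase of B cells and myeloid cells that binds the lipid product of PI3-kinase through its pleckstrin homology domain and passes on the signal of the B cell receptor. FASLG (Fas ligand, a member of the TNF superfamily) is a membrane protein of activated T cells and natural killer cells that triggers apoptosis in cells with the receptor Fas, and Akt restrains the Foxo factors that can activate its gene. B2M (beta-2-microglobulin) is the light chain of major histocompatibility complex (MHC) class I molecules, is made by nearly all nucleated cells, and is abundant in leukocytes. The authors state that adaptive immunity of zebrafish matures in function only after the age of these larvae. The roles in mammals are thus background, and the 3 transcripts were not read as a measure of mature lymphocytes. The question was whether these leukocyte-linked transcripts move together in NOD1-deficient larvae.

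The 3 transcripts did not change in one direction. Scaled to hprt1, nono and rpl13a, btk and b2m were lower in NOD1-deficient larvae, at 63.1% and 70.9% of the WT mean, and faslg was higher, at 154%, while all 3 were above WT when acta1b was the only scaling gene. Expression was read as delta Ct. This is the threshold cycle (Ct) at which a product is detected, less the average Ct that the 3 scaling genes hprt1, nono and rpl13a had on that array, so a lower delta Ct means more transcript. The log2 change is the mean of minus delta Ct in NOD1-deficient larvae less that in WT larvae, and it is positive where NOD1-deficient larvae had more transcript. All 3 genes gave a Ct on 6 of 6 arrays. With a test across 86 genes (the 84 pathway genes, b2m and acta1b), 3 of the 3 genes had an adjusted p under 0.05 in limma, where 20.9% of all genes tested did. The rate was 17.4% for genes called lower and 3.49% for genes called higher. These 2 rates depended on the scaling. With all 5 reference genes 7 genes were called lower and 16 higher, with hprt1 alone 8 and 7, and with nono alone 26 and 3. The values of the groups did not overlap for 3 of the 3 genes, as for 32.6% of all genes tested.

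The kinase gene btk had delta Ct values of 6.41, 6.55 and 6.73 in NOD1-deficient larvae and of 5.95, 6.06 and 5.68 in WT larvae. All NOD1-deficient values were above all WT values, which stands for less transcript. Set against the WT mean, the NOD1-deficient pools held 70.1%, 63.7% and 56.2% of the transcript, and the WT pools 96.4%, 89.2% and 116%. The mean delta Ct was 6.56 ± 0.159 in NOD1-deficient and 5.90 ± 0.197 in WT larvae (SD, n = 3 each). The log2 change was -0.66 ± 0.159 (SE) with an adjusted p of 0.000371 in limma, and it ranked as the 6th lowest of the 86 genes. From the gene's own replicates the SE was 0.146, the 95% interval ran from -1.07 to -0.26, and the adjusted p was 0.0992 in a linear model without moderation. The Ct before scaling was 25.772, 26.108 and 26.257 in NOD1-deficient larvae and 25.770, 25.682 and 25.580 in WT larvae. These raw values were also later on each NOD1-deficient array than on any WT array, by a narrow margin.

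The death ligand gene faslg moved the other way. Its delta Ct values were 10.1, 9.85 and 9.80 in NOD1-deficient larvae and 10.4, 10.3 and 10.8 in WT larvae. The highest NOD1-deficient value was thus below the lowest WT value. The NOD1-deficient pools held 136%, 161% and 166% of the WT mean, and the WT pools 107%, 114% and 81.9%. The mean delta Ct was 9.92 ± 0.156 in NOD1-deficient and 10.5 ± 0.254 in WT larvae (SD, n = 3 each). The log2 change was 0.62 ± 0.159 (SE) with an adjusted p of 0.000944 in limma, and 2 of the 86 genes had a higher log2 change. Estimated from the replicates of faslg alone, the SE was 0.172, the 95% interval ran from 0.14 to 1.10, and the adjusted p was 0.131 without moderation. The gene was detected late, at a Ct of 29.45, 29.41 and 29.33 in NOD1-deficient larvae and of 30.26, 29.96 and 30.72 in WT larvae. WT replicate 3 had the latest Ct of the 6, and without it the log2 change was 0.47 with an adjusted p of 0.0587 in limma.

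The MHC class I light chain gene b2m had delta Ct values of 3.67, 3.70 and 3.87 in NOD1-deficient larvae and of 3.23, 3.22 and 3.31 in WT larvae. The groups were apart, and the spread of b2m was smaller than that of btk and faslg. The NOD1-deficient pools held 74.6%, 73.5% and 64.9% of the WT mean, and the WT pools 102%, 102% and 96.0%. The mean delta Ct was 3.75 ± 0.110 in NOD1-deficient and 3.25 ± 0.0512 in WT larvae (SD, n = 3 each). The log2 change was -0.50 ± 0.159 (SE) with an adjusted p of 0.0106 in limma. With its own SE of 0.0699 the adjusted p was 0.0298 and the 95% interval ran from -0.69 to -0.30, so that b2m was the one gene of the 3 that passed with either estimate of the spread. Without NOD1-deficient replicate 3 the log2 change was -0.43 and the adjusted p 0.0727 in limma. For each of the 3 genes the two-sided exact permutation p was 0.1, the smallest value that 3 replicates against 3 allow.

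**Figure D1:**
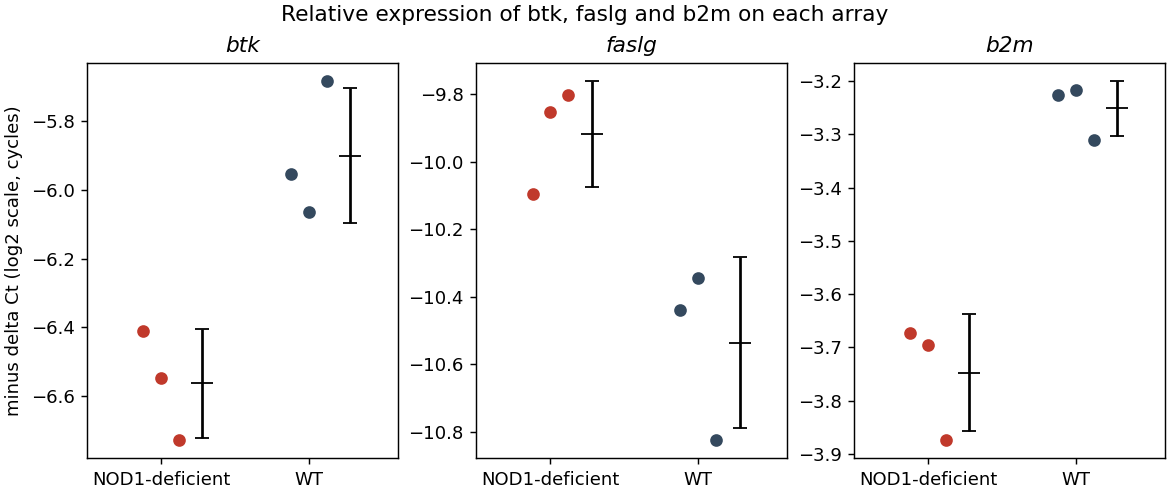
Minus delta Ct (log2 scale, in cycles) of btk, faslg and b2m, with 1 point for each of 3 NOD1-deficient (red) and 3 WT (dark) arrays and the mean ± SD beside them. The axes differ between panels. The NOD1-deficient points lie below the WT points for btk and b2m and above them for faslg.

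The call of b2m rested on the scaling genes more than the other calls did. Before scaling, the Ct of b2m was 23.03, 23.25 and 23.40 in NOD1-deficient larvae and 23.04, 22.84 and 23.21 in WT larvae, and the groups overlapped. That raw log2 difference was -0.20 with an exact permutation p of 0.3, against raw differences of -0.37 for btk and 0.92 for faslg (exact permutation p = 0.1 each). The mean of hprt1, nono and rpl13a itself was earlier in NOD1-deficient larvae, at a Ct of 19.5 ± 0.107 against 19.8 ± 0.144 in WT larvae (SD, n = 3 each), a log2 difference of 0.30 with an exact permutation p of 0.1. The positive PCR control wells differed by 0.15 in the same direction (exact permutation p = 0.1). By its definition the log2 change of b2m (-0.50) is its raw difference (-0.20) less that of the 3 scaling genes (0.30). What lay behind the shift of the scaling genes and of the control wells was not tested.

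Under another scaling all log2 changes shift by one constant. This moved btk between -0.83 (nono alone) and -0.38 (all 5 reference genes) over 6 other scalings, each with an adjusted p under 0.05 in limma. The largest of these adjusted p-values was close to the threshold, at 0.0498 with the positive PCR control wells (-0.52). With acta1b alone btk turned to 0.25 (adjusted p 0.387). The gene faslg was higher in 7 of 7 other scalings, from 0.45 with nono alone to 1.53 with acta1b alone, with an adjusted p under 0.05 in each. The gene b2m was lower in 6 of 7, of which the scaling to all 5 reference genes includes b2m itself. It kept an adjusted p under 0.05 in 2 of them, nono alone (-0.66) and rpl13a alone (-0.47). With acta1b alone b2m turned to 0.41 (adjusted p 0.155). The muscle actin gene acta1b was itself lower in NOD1-deficient larvae by the usual scaling, with a log2 change of -0.91 and an adjusted p of 3.17e-07 in limma. The NOD1-deficient pools held 37.4%, 66.4% and 60.5% of its WT mean, and the WT pools 95.5%, 95.1% and 110%. Replicate 1 was the lowest of the 3 NOD1-deficient pools, and from the spread of acta1b alone the SE was 0.266 and the adjusted p 0.144, so that this call was lost without moderation.

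**Figure D2:**
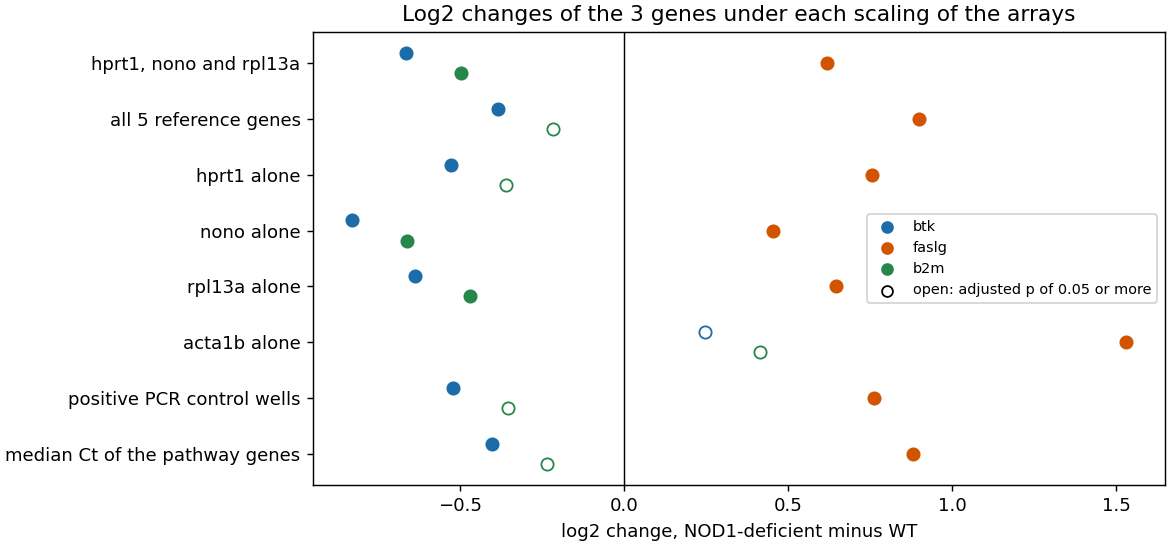
Log2 change of btk (blue), faslg (orange) and b2m (green) between NOD1-deficient and WT larvae (x axis) under 8 scalings of the arrays (rows, with the 3 scaling genes at the top). Filled points have an adjusted p under 0.05 in limma. The 3 points of a row shift together, and faslg lies to the right of btk and b2m in each row.

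Relative to the median log2 change of the 86 genes (-0.11), the changes were -0.55 for btk, 0.73 for faslg and -0.38 for b2m. Of the 86 genes, 15 were called lower and 3 higher, and 61 had a log2 change below 0.

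**Figure D3:**
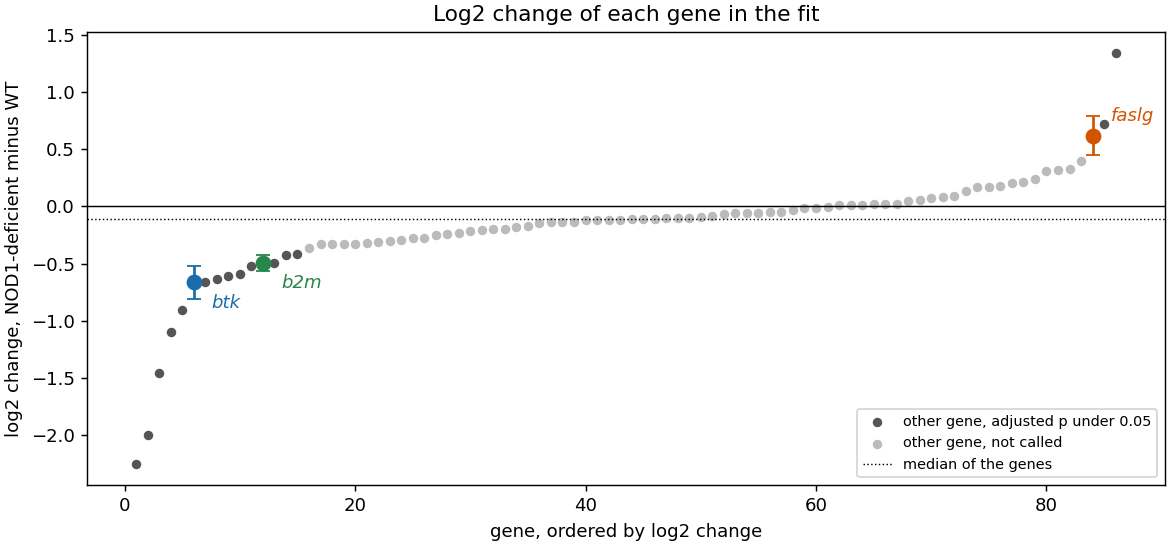
Log2 change between NOD1-deficient and WT larvae (y axis) of 86 genes, ordered from the lowest to the highest (x axis). Bars on btk, faslg and b2m are the SE from their own replicates, dark grey points are other genes with an adjusted p under 0.05, and the dotted line is the median (-0.11). The genes btk and b2m lie among the genes called lower, and faslg among the 3 called higher.

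The ratio of 2 genes on the same array does not depend on the reference genes, so the 3 pairs were also compared directly. The log2 ratio of btk to faslg was 3.68, 3.30 and 3.07 in NOD1-deficient larvae and 4.49, 4.28 and 5.14 in WT larvae. The NOD1-deficient ratios were all below the WT ratios, with a difference of -1.28 ± 0.315 (SE), or 2.43-fold lower, and a 95% interval from -2.16 to -0.41. The log2 ratio of b2m to faslg was 6.42, 6.16 and 5.93 in NOD1-deficient larvae and 7.21, 7.13 and 7.51 in WT larvae. These groups were also apart, with a difference of -1.12 ± 0.184 (SE), or 2.17-fold lower, and a 95% interval from -1.63 to -0.60. The log2 ratio of btk to b2m was -2.74, -2.85 and -2.86 in NOD1-deficient larvae and -2.73, -2.85 and -2.37 in WT larvae. These values overlapped, and the difference of -0.17 ± 0.148 (SE) had a 95% interval from -0.58 to 0.24, which leaves room for an unequal change of the pair. The size of this difference depended on single arrays. It shrank to -0.03 once WT replicate 3, the array with the highest ratio of btk to b2m, was dropped. It grew to -0.27 when WT replicate 2 was dropped instead. Dropping any other array gave a difference between these values. The exact permutation p was 0.1, 0.1 and 0.2 for the 3 pairs in this order, and 0.15, 0.15 and 0.20 after Benjamini-Hochberg adjustment over them. The exact permutation test cannot go below 0.1 with 3 replicates per group, while the 95% intervals of the 2 differences that involve faslg, which rest on a t distribution, did not include 0.

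**Figure D4:**
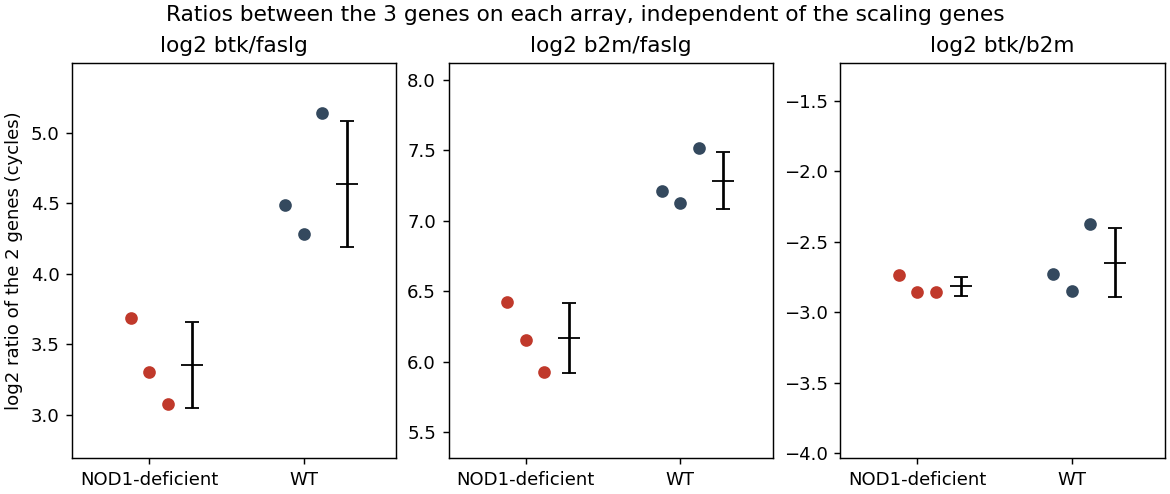
Log2 ratio of btk to faslg, b2m to faslg and btk to b2m (y axis, in cycles; each panel spans the same range) on 3 NOD1-deficient (red) and 3 WT (dark) arrays, with the mean ± SD beside the points. The 2 ratios to faslg are lower on each NOD1-deficient array than on any WT array, and the ratio of btk to b2m overlaps.

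The replicates of a group also differed among themselves. Among the NOD1-deficient arrays, replicate 3 had the lowest btk and b2m and the highest faslg. Among the WT arrays, replicate 3 had the highest btk and the lowest faslg and b2m. The deviations of btk and faslg from their group means lay on opposite sides of 0 on 5 of 6 arrays. Those of btk and b2m lay on opposite sides on 3 of 6 arrays, and those of b2m and faslg on 2 of 6. With 3 arrays in a group these counts are a description only.

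The genes that ran most nearly parallel to each of the 3 were found by the SD of the Ct difference over the 6 arrays, another measure that does not depend on scaling. For btk they were itga1 (integrin alpha 1), grb2b (an adaptor of receptor signalling) and elk1 (a transcription factor downstream of MAP kinases), with SDs of 0.0963, 0.127 and 0.148 cycles, where the median over the 88 other genes was 0.380. Their log2 changes were -0.64, -0.50 and -0.66. For b2m they were grb2b, pik3cb (a catalytic subunit of PI3-kinase) and pdk2 (a pyruvate dehydrogenase kinase), with SDs of 0.140, 0.140 and 0.162 cycles and a median of 0.288. For faslg the nearest were badb (the apoptosis regulator Bad) and waslb (a regulator of actin assembly). Their SDs were 0.252 and 0.274 cycles, where the median for faslg was 0.473. The SDs of the nearest genes and the median were all larger for faslg than for btk and b2m. The log2 changes of badb and waslb, 0.32 and 0.39, were smaller than that of faslg. Among the 88 other genes, b2m ranked 6th in nearness to btk, with an SD of 0.186 cycles, and faslg ranked 86th, with 0.783 cycles. The arrays and the 2 groups are shared by all genes, so these SDs hold the group difference as well as the scatter.

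Signalling genes around BTK were read next. Of 11 genes on the array whose proteins act beside or after BTK in the B cell receptor pathway of mammals, 3 were lower in NOD1-deficient larvae with an adjusted p under 0.05 in limma, 0 were higher and 8 did not pass. The 3 genes were pik3r2 (a regulatory subunit of PI3-kinase, log2 change -1.46, adjusted p 1.21e-16), sos1 (the exchange factor that activates Ras, -0.61, adjusted p 0.00111) and grb2b (-0.50, adjusted p 0.0106). Over all 86 genes 17.4% were called lower, so 3 of 11 is near that background, and too few genes to read further against it. With the spread of each gene alone, pik3r2 was the one called gene of the list (adjusted p 0.0124), and the calls of sos1 (adjusted p 0.288) and grb2b (adjusted p 0.0979) were lost. Counted in either direction, the number of called genes in the list was 2 to 4 under 6 other scalings and 7 with acta1b alone. These counts do not show that the same genes stayed called lower. The median of the 11 genes was -0.11, as was that of all 86 genes. The gene prkcbb, a protein kinase C beta gene whose mammalian counterpart acts after BTK, had a log2 change of -0.01 (adjusted p 0.968).

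Of 7 genes linked to Fas ligand (apoptosis genes, and genes of Foxo, AP-1 and JNK proteins that act on FASLG in mammals), 1 was called higher, 0 were called lower and 6 did not pass. The called gene was fos, a subunit of the transcription factor AP-1, with a log2 change of 0.73 and an adjusted p of 8.79e-05. Over all 86 genes 3.49% were called higher by the usual scaling, and a single gene of 7 is too few to read against that rate. Without moderation the adjusted p of fos was 0.119 and 0 genes of the list were called. Counted in either direction, the number called was 3 with all 5 reference genes, hprt1 alone or the median Ct of the pathway genes. It was 2 with nono alone or the positive PCR control wells, 7 with acta1b alone and 3 without WT replicate 2. These counts do not give the direction of each call. The AP-1 partner of fos, jun, had a log2 change of 0.31 (adjusted p 0.156). The Foxo genes foxo1a and foxo3b had log2 changes of -0.32 (adjusted p 0.149) and 0.08 (adjusted p 0.805), and badb one of 0.32 (adjusted p 0.146). The remaining genes of the list, casp9 (a caspase gene) and mapk8b (a JNK gene), had log2 changes of -0.10 (adjusted p 0.710) and -0.12 (adjusted p 0.703). Of the 7 genes, 4 had a log2 change above 0 and 3 below 0. The median of the 7 genes was 0.08, against -0.11 over all 86 genes. Another scaling moves the median of each list and that of all genes by the same constant, so the sign of a list's median depends on the scaling and its distance from the median of all genes does not.

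A further list held 6 genes best known from leukocytes or from pattern recognition, of which pik3cg and prkcbb were also among the 11 above. Of the 6 genes, 1 was called lower and 0 higher. This was tlr4bb, a gene of a Toll-like receptor, with a log2 change of -2.26 and an adjusted p of 2.35e-34 in limma. The single gene of 6 is near the 17.4% called lower over all 86 genes, and likewise too few to read against that rate. Counted in either direction, the number called was 2 with all 5 reference genes or nono alone and 6 with acta1b alone. It stayed at 1 under the other scalings. With the spread of tlr4bb alone, its adjusted p was 0.0209 at an SE of 0.276. It was detected late, at a mean Ct of 33.5 in NOD1-deficient and 31.6 in WT larvae, and with genes limited to a mean Ct of 30 it was not tested and 0 genes of the list were called. The other 5 genes did not pass and ran from -0.33 for tirap, an adaptor of Toll-like receptors, to 0.09 for pik3cg, a catalytic subunit of PI3-kinase known from leukocytes of mammals. The median of the 6 genes was -0.10. Of the 3 markers of other tissues, acta1b of skeletal muscle was called lower in limma, though not without moderation (above), and cx43 (connexin 43) and pdgfra (a receptor of mesenchyme) had log2 changes of -0.14 each (adjusted p 0.629 each). The part of the tissue make-up in the changes of btk, faslg and b2m was not tested. In RNA of whole larvae, fewer cells of a type and less RNA per cell cannot be told apart.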

How the data were processed

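Total RNA (TRIzol, 1000 ng) was reverse transcribed with SuperScript III and amplified with SYBR Green for 40 cycles on a LightCycler instrument, per the labels. The authors deposited raw Ct of 6 arrays, ratios normalized to reference genes (1 value per genotype, 2 to the power of minus delta Ct, from the manufacturer's software) and fold changes, and the last were not used here. The deposited ratios were matched within 1.91e-06 (log2) by scaling to the 3 genes hprt1, nono and rpl13a after setting any Ct above 35 to 35. GEO holds 1 sample per genotype, but the raw table has 3 columns each, which the series design text calls biological replicates. The number of arrays limits the precision. Control wells for genomic DNA gave no Ct on the 6 arrays. Those for reverse transcription gave none either, so its efficiency could not be compared between arrays or groups from these wells.

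Minus delta Ct of 86 genes was tested two-sided with limma 3.58.1 (R 4.3.3, functions lmFit and eBayes). The p-values were adjusted over these 86 genes (Benjamini-Hochberg), and a gene was called under 0.05. One cycle was taken as 1 unit of log2, as for a product that doubles per cycle, and levels were not compared between genes. The prior degrees of freedom were infinite, so each gene had the same SD (0.195). Fits without moderation, with trend and robust, with other scalings, without b2m and acta1b, with a limit of 30 on the mean Ct, with a ceiling of 40, with the replicate number as a block and without each replicate were alternatives, and the test was tried on simulated data. The 95% intervals used 4 residual degrees of freedom. Same-numbered arrays of the groups were not paired by the labels. Named genes were the 3 genes, the 3 most nearly parallel genes for each (1 of those of faslg is not reported here) and the called genes of the lists (other list genes named were chosen after their values were seen). The genes and lists were chosen with earlier results of these data known. The array's accessions of 80 of 89 genes, the 3 genes included, matched a RefSeq gene.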

Additional observations from a re-analysis of the deposited data

How the results depend on the processing

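The log2 changes of btk, faslg and b2m had the same direction and call in 17 of 19, 16 of 19 and 12 of 18 alternatives, and b2m has no value where the 84 pathway genes alone were fitted. Fits with another moderation, gene set, ceiling, Ct limit or replicate block left these log2 changes as they were, so only the call could differ there. The gene faslg passed the Ct limit of 30 by its mean over all arrays, with means of 29.4 in NOD1-deficient and 30.3 in WT larvae. Scaled to acta1b alone, btk became 0.25 and b2m 0.41. The call of b2m was lost with all 5 reference genes (-0.22, adjusted p 0.264). That scaling adds acta1b (-0.91 by the usual scaling) and b2m itself (-0.50), and the larger part of its shift comes from acta1b. The call of b2m was also lost with hprt1 alone (-0.36), the positive PCR control wells (-0.35) and the median Ct of the pathway genes (-0.24). Without moderation the calls of btk (-0.66) and faslg (0.62) were lost, and that of faslg also with trend and robust (0.62, adjusted p 0.0526). With 1 replicate left out, faslg ran from 0.47 (without WT replicate 3) to 0.71 and b2m from -0.53 to -0.43 (without NOD1-deficient replicate 3), and btk kept its call in 6 of 6 fits. The 18 called genes became 29 with nono alone, 72 with acta1b alone and 7 without moderation. They became 12 without WT replicate 3. The share called lower, 83.3%, was 30.4% with all 5 reference genes, 53.3% with hprt1 alone, 53.8% with the control wells, 30.8% with the median Ct and 2.78% with acta1b alone. The differences between the 3 pairs kept their direction in each fit that left out a replicate. For btk to b2m this says little, since the difference was -0.03 without WT replicate 3.

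Arrays of one number did not deviate together, with correlations over the pathway genes of 0.12, 0.085 and -0.27, so they were not treated as paired. A fit with the replicate block called 16 genes, and btk (-0.66), faslg (0.62) and b2m (-0.50) kept an adjusted p under 0.05.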
